A study of Mus musculus with 6 samples.

Results

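The kappa variable (V) genes are the gene segments that encode most of the variable domain of the immunoglobulin kappa light chain. The count table was searched for every symbol that starts with Igkv, which gave 162 members of 49997 listed genes. Members were grouped by V family, the number between "Igkv" and the hyphen, and by position number, the number that follows the hyphen. The position groups were J-near (1 to 50, 53 members), middle (51 to 100, 66 members) and J-far (above 100, 43 members). Neither grouping uses a measured value. C57BL/6 mice aged 6 to 12 weeks gave bone marrow, from which small pre-B cells were sorted for RNA-seq: 3 libraries from wild-type (WT) mice and 3 from mice of the genotype ΔrsCBE. Values per library are listed in the order of replicates 1 to 3. The Δ marks a deletion, and the labels do not say which interval was removed or whether libraries of 1 genotype came from separate animals. P-values therefore measure the spread between these libraries, part of which may be technical.

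A pre-B cell joins 1 of its many kappa V genes to 1 of a few joining (J) segments, which lie just before the constant gene Igkc. The recombinase Rag1 and Rag2 cuts beside the segments, and end-joining proteins seal the break. A V gene that points the same way as the J segments joins by deletion of the DNA between them, and a V gene that points the opposite way joins by inversion. If the first light chain is self-reactive or not functional, the cell can use a V gene farther from J in a further rearrangement, which is called receptor editing. V genes not yet joined are also transcribed at low level, as germline transcripts, before they recombine.

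Members of a family share much of their sequence. Over transcripts of GENCODE M21 (build GRCm38), pairs of members of the same family had a median identity of 86.6%, and pairs from different families had a median of 63.2%. The end of the V segment that is joined to J shows how the families differ, so the last 60 coding bases are printed for the most abundant member of each family with 20 or more counts. The capitals mark the last in-frame cysteine codon, the conserved residue that precedes the third complementarity-determining region.
Igkv12-46: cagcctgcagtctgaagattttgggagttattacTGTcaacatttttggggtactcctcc
Igkv8-21: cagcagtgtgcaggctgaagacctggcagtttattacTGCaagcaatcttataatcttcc
Igkv19-93: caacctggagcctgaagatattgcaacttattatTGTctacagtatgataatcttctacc
Igkv1-88: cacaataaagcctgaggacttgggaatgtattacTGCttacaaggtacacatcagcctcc
Igkv6-15: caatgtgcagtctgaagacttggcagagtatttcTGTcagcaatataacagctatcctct
Igkv10-96: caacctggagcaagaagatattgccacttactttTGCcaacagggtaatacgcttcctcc
Igkv4-68: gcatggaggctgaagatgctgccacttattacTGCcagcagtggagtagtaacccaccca
Igkv9-124: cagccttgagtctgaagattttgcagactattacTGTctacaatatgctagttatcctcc
Igkv5-48: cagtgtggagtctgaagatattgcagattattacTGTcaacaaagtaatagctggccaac
Between 20 bases (Igkv8-21) and 25 bases (Igkv4-68) of coding sequence follow that codon in these 9 genes.

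Within a family, identity ranged from 59.6% to 98.8%, and in family 12 from 75.5% to 95.7% (median 82.5%). To show how close the nearest members of family 12 are, the coding bases 121 to 240 of the 2 most abundant genes and of their near relative Igkv12-41 are shown, counted from the start codon, with capitals for bases that differ from Igkv12-46.
Igkv12-46: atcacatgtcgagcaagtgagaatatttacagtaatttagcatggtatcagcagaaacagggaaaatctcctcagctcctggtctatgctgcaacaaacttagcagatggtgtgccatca
Igkv12-44: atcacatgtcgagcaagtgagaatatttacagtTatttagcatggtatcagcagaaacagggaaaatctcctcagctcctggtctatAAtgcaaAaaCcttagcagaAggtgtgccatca
Igkv12-41: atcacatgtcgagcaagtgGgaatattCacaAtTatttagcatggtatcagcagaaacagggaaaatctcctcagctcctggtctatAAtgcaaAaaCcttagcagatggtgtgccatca
Igkv12-44 differs from Igkv12-46 at 6 of these positions and at 16 over the whole coding length of 347 bases, and Igkv12-41 differs at 8 and 17. Reads from such pairs may be divided between the genes or dropped by the counting, so the values of single genes are uncertain and pools by family or position are used for the comparisons.

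The libraries held between 428106 and 1300805 counts. A gene with 3 counts, the floor used here, corresponded to 2.31 to 7.17 CPM depending on the library (counts divided by the TMM-scaled library total), and intervals and floors cover counting error only. Defining markers of the sorted cells were present in every library: Cd79a, Cd79b, Il2ra, Rag1, Rag2, Vpreb3, Ebf1 and Pax5 summed to between 8885 and 10711 CPM in WT and between 9811 and 10512 CPM in ΔrsCBE. Plasma cells carry very large amounts of kappa RNA, and of their 5 markers Tnfrsf17 had 0 counts and Jchain 1 count over all 6 libraries, while Xbp1, Sdc1 and Prdm1, which are not restricted to plasma cells, had counts. Xbp1, a transcription factor of secretory cells, had 39.5, 38.2 and 35.5 CPM in WT and 62.5, 54.4 and 50.4 CPM in ΔrsCBE, higher in every ΔrsCBE library than in any WT library. Sdc1 and Prdm1 overlapped between genotypes. The summed level of these 5 markers was 95.5 to 117 CPM in WT and 116 to 143 CPM in ΔrsCBE. The 6 markers of pro-B and large pre-B cells summed to 435 to 478 CPM in WT and 422 to 533 CPM in ΔrsCBE. Nearly all of this was Il7r, while Dntt, Igll1, Vpreb1 and Kit had few counts and Vpreb2 had 0. The 8 markers of immature and mature B cells summed to 539 to 817 CPM in WT and 548 to 669 CPM in ΔrsCBE. Of 6 markers each, 2 T and NK cell genes, 4 myeloid genes and 1 erythroid gene had any count, with sums of at most 8.61 CPM in any library. The myeloid sum was 6.04 to 8.61 CPM in ΔrsCBE and 0 to 6.32 CPM in WT. Lyz2 had 0 counts in each WT library and 2, 4 and 2 counts in ΔrsCBE, and S100a9 had 0 in WT and 2, 1 and 3 in ΔrsCBE. Csf1r overlapped, with 4, 0 and 2 counts in WT and 1, 1 and 2 in ΔrsCBE, and Mpo had 1 count in ΔrsCBE replicate 1. The part of these cells in the results was not tested. ΔrsCBE replicates 2 and 3 had the female pattern of Xist and Y-linked counts and the other 4 libraries the male pattern, so that sex and genotype are partly confounded. Log2 fold changes and differences in share with the male-pattern libraries alone are given where they differ from the full comparison in sign or by over 1.5 times.

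Counts of kappa V genes followed the strand of the gene. All 75 members on the plus strand of chromosome 6, the strand of the J segments and of Igkc, were listed at 0 in every library. On the minus strand 62 of 85 members had a count, and these 62 held all 762 counts of the group. Another 2 members, Igkv13-89-1 and Igkv8-23-1, have no entry in GENCODE M21 and were also listed at 0. Igkc and the segments Igkj1 to Igkj5 were at 0 as well. The table has a locus-wide entry named Igk with between 699 and 2091 counts per library. In RefSeq (GRCm38.p6) this entry runs from 67555636 to 70726754 on chromosome 6, and all 162 members lie inside it. The submitters' processing notes name HTSeq, a counter whose usual settings leave out reads that overlap more than 1 gene. The setting used is not given in the sources used here, and whether it produced the zeros of the plus strand was not tested. The values that follow thus describe V genes that would join J by inversion, and differences in plus-strand V genes were not measurable in these files.

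**Figure D1:**
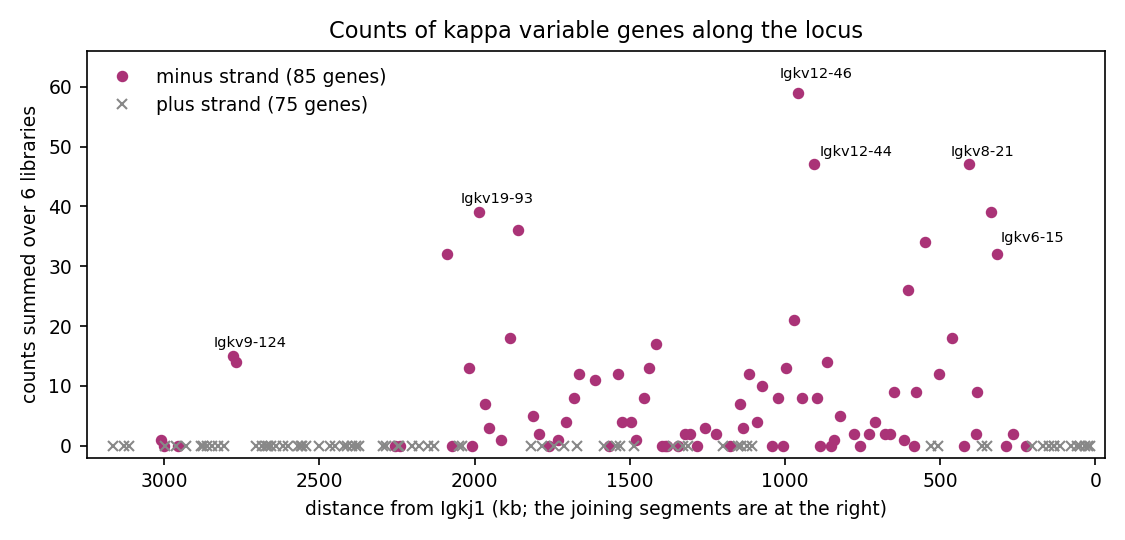
Counts of each kappa V gene summed over the 6 libraries (vertical axis) against its distance from Igkj1 in kb (horizontal axis, J segments at the right). The 85 minus-strand genes are circles and the 75 plus-strand genes are crosses, and every cross lies at 0.

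On the minus strand, genes annotated as functional had counts more often than pseudogenes. Of 62 functional genes 54 were detected, with 717 counts, and of 23 pseudogenes 8 were detected, with 45 counts. The 8 functional minus-strand genes without a count were Igkv1-131, Igkv4-51, Igkv4-57-1, Igkv4-59, Igkv4-63, Igkv5-37, Igkv6-14 and Igkv6-29, named after their values were seen. Their nearest relatives in the locus were 87.2% to 98.7% identical (median 94.4%), and those of the 54 detected genes 67.7% to 98.7% (median 94.7%). Whether reads shared with relatives left these 8 genes without a count was not tested. The position number followed the order of the genes along the chromosome, with 1 of 159 neighbouring pairs out of order (Igkv4-59 and Igkv4-60). Igkv3-1 lies 18.4 kb from Igkj1 and Igkv2-137 lies 3166 kb from it.

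The position groups differed in how many of their members lie on the minus strand. The J-far group had 7 minus-strand members of 43, the middle group 42 of 66 and the J-near group 36 of 53. Per minus-strand member, the mean level in WT was 2.13 ± 0.479 CPM in the J-near group, 1.15 ± 0.108 CPM in the middle group and 1.01 ± 0.386 CPM in the J-far group (SD, n = 3). In ΔrsCBE the same values were 2.83 ± 0.159, 1.63 ± 0.351 and 0.616 ± 0.395 CPM. Pseudogenes are included in this divisor. They are most of the J-far minus-strand members (Igkv14-134-1, Igkv15-101, Igkv15-102 and Igkv17-134), unlike in the other groups. With this divisor the J-near members had the highest level in all 6 libraries. The middle and J-far levels overlapped in WT and did not overlap in ΔrsCBE. The order of the groups among functional genes alone was not examined.

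The first comparison asked whether the kappa V genes as a group differed in level between the genotypes. The pooled level was higher in every ΔrsCBE library than in any WT library, but did not pass the threshold across all genes. The pooled counts were 78, 62 and 162 in the WT libraries and 164, 152 and 144 in the ΔrsCBE libraries. The levels were 123, 148 and 125 CPM in WT and 193, 153 and 177 CPM in ΔrsCBE. WT replicate 2 and ΔrsCBE replicate 2 lay closest to each other across the genotypes. The WT mean was 132 ± 13.9 CPM and the ΔrsCBE mean 175 ± 20.3 CPM (SD, n = 3), and the log2 fold change was 0.42 (SE 0.15). By edgeR's quasi-likelihood test with the pool entered as 1 row among 7793 rows, the p-value was 0.0103 and the Benjamini-Hochberg adjusted p-value 0.237. An adjusted p-value under 0.05 was reached by 1.68% of the rows, an unadjusted one by 10.3%, and 7.24% of the rows had ΔrsCBE values all above those of WT. Xbp1 was also higher in ΔrsCBE without overlap, at the levels given above, and its part in this result was not tested. In bulk samples a difference in the number of cells that carry such a transcript and a difference in RNA per cell cannot be told apart.

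The difference was larger against the male-pattern ΔrsCBE library. With the 4 male-pattern libraries alone, where ΔrsCBE is replicate 1 and is assumed to vary like WT, the log2 fold change was 0.57 (adjusted p = 0.121, edgeR). Leaving out ΔrsCBE replicate 1 gave 0.34, the lowest value of any library left out.

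The locus-wide entry Igk was compared with the V genes, since it holds the bulk of the counts from the locus. Igk reached 1681 ± 73.6 CPM in WT against 1939 ± 120 in ΔrsCBE (SD, n = 3), with a log2 fold change of 0.21 (SE 0.09; adjusted p = 0.401, edgeR). Its levels were 1759, 1670 and 1613 CPM in WT and 2013, 1801 and 2003 CPM in ΔrsCBE. Like the V gene pool and 7.24% of all rows, Igk thus had ΔrsCBE values all above WT. For each 100 counts of Igk there were 7.01, 8.87 and 7.75 V gene counts in WT and 9.61, 8.50 and 8.85 in ΔrsCBE. WT replicate 2 lay above 2 of the 3 ΔrsCBE libraries in this ratio. The means, 7.88 ± 0.937 and 8.98 ± 0.568 (SD, n = 3), gave a two-sided p of 0.3 in the exact permutation test, where 0.1 is the smallest that 3 libraries against 3 allow. The entries Igl and Igh, of the lambda and heavy chain loci, had log2 fold changes of -0.12 and 0.13 (adjusted p = 0.839 and 0.740, edgeR), and both signs turned with the male-pattern libraries alone (0.020 and -0.088).

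The second comparison took the V genes by position. Levels in the J-near group were higher in ΔrsCBE without overlap, those of the middle group overlapped, and the few J-far counts ran the other way. The J-near group had 72.7, 95.5 and 61.7 CPM in the WT libraries and 108, 98.7 and 98.4 CPM in the ΔrsCBE libraries. WT replicate 2 was again the WT library nearest to ΔrsCBE. The means were 76.7 ± 17.3 and 102 ± 5.74 CPM (SD, n = 3), with a log2 fold change of 0.48 (SE 0.19; adjusted p = 0.300, edgeR). Of the 7794 rows of this fit, 1.69% passed the threshold and 7.24% had ΔrsCBE values all above WT. Without WT replicate 3 the log2 fold change fell to 0.30, less by over 1.5 times, and without WT replicate 2 it was 0.63.

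In the middle group the levels were 44.3, 47.8 and 53.2 CPM in WT and 81.4, 52.3 and 71.4 CPM in ΔrsCBE. The value of ΔrsCBE replicate 2 fell between those of WT replicates 2 and 3. The means were 48.4 ± 4.52 and 68.4 ± 14.7 CPM (SD, n = 3), and the log2 fold change was 0.46 (SE 0.22; adjusted p = 0.457, edgeR). With the male-pattern libraries alone it was 0.72.

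The J-far group had 4, 2 and 13 counts in WT and 3, 2 and 6 counts in ΔrsCBE, or 6.32, 4.78 and 10.03 CPM against 3.54, 2.01 and 7.38 CPM. The groups overlapped, and most of these values are at or near the floor of 3 counts. The counts came from Igkv9-124 (15 counts), Igkv9-123 (14 counts) and the pseudogene Igkv14-134-1 (1 count). The group did not pass the count filter of 10. In the fit without that filter its log2 fold change was -0.88 (SE 0.65; adjusted p = 0.750, edgeR). With the borders set at 40 and 90 instead of 50 and 100, which moves genes such as Igkv19-93 and Igkv10-96 into this group, the value was 0.31, so its direction rests on the border. It was -0.39 without WT replicate 3, -0.52 without ΔrsCBE replicate 2 and -1.46 without ΔrsCBE replicate 3.

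**Figure D2:**
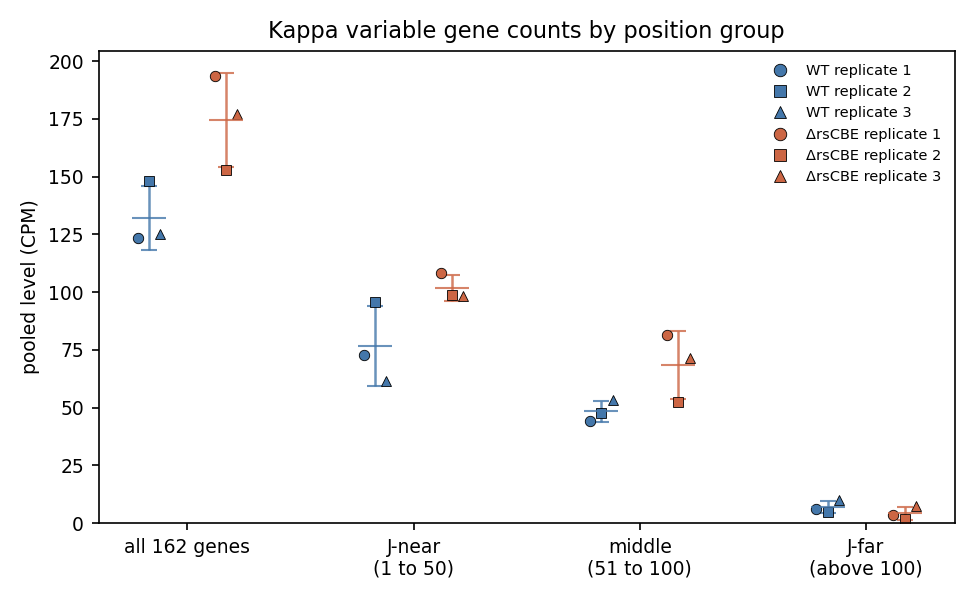
Level in CPM (vertical axis) of all kappa V genes pooled and of the 3 position groups in each library. Symbols are replicates, and bars give the mean and SD of each genotype. All 3 ΔrsCBE libraries lie above WT for the total (153 CPM and more against at most 148 CPM) and for the J-near group (98.4 CPM and more against at most 95.5 CPM).

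The make-up of the V gene counts does not depend on library scaling. The J-near and middle shares differed between genotypes by less than their SDs, and the J-far share was lower in ΔrsCBE by more than its SDs but with overlap. The J-near share was 59.0%, 64.5% and 49.4% in the WT libraries and 56.1%, 64.5% and 55.6% in the ΔrsCBE libraries. The means, 57.6% ± 7.66 in WT and 58.7% ± 5.0 in ΔrsCBE (SD, n = 3), differed by 1.08 percentage points, less than the SD of either genotype. The difference turned negative without WT replicate 3 (-3.04 points), without ΔrsCBE replicate 2 (-1.80) and with the male-pattern libraries alone (-1.53). The middle share averaged 36.9% ± 5.24 in WT and 38.9% ± 4.12 in ΔrsCBE (SD, n = 3), and its difference was 1.94 points, -0.391 points without WT replicate 2 and 5.16 points with the male-pattern libraries alone. In the WT libraries the J-far counts made up 5.13% (2.01% to 12.5%, 95% Wilson interval), 3.23% (0.889% to 11.02%) and 8.02% (4.75% to 13.2%) of the V gene counts. In ΔrsCBE they made up 1.83% (0.624% to 5.24%), 1.32% (0.362% to 4.67%) and 4.17% (1.92% to 8.79%). ΔrsCBE replicate 3 lay above WT replicate 2, so the groups overlapped. The mean J-far share was 5.46% ± 2.42 for WT against 2.44% ± 1.52 for ΔrsCBE (SD, n = 3), which differ by -3.02 points, or by -1.74 points without WT replicate 3. The 3 exact permutation p-values, two-sided, were 1, 0.8 and 0.2 for J-near, middle and J-far, and 1, 1 and 0.6 after adjustment over the 3 groups. With 3 libraries against 3 this test gives no p-value under 0.1, so it could not have reached 0.05. The values also cover minus-strand genes only. Whether counts shifted between the ends of the locus was thus not settled.

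**Figure D3:**
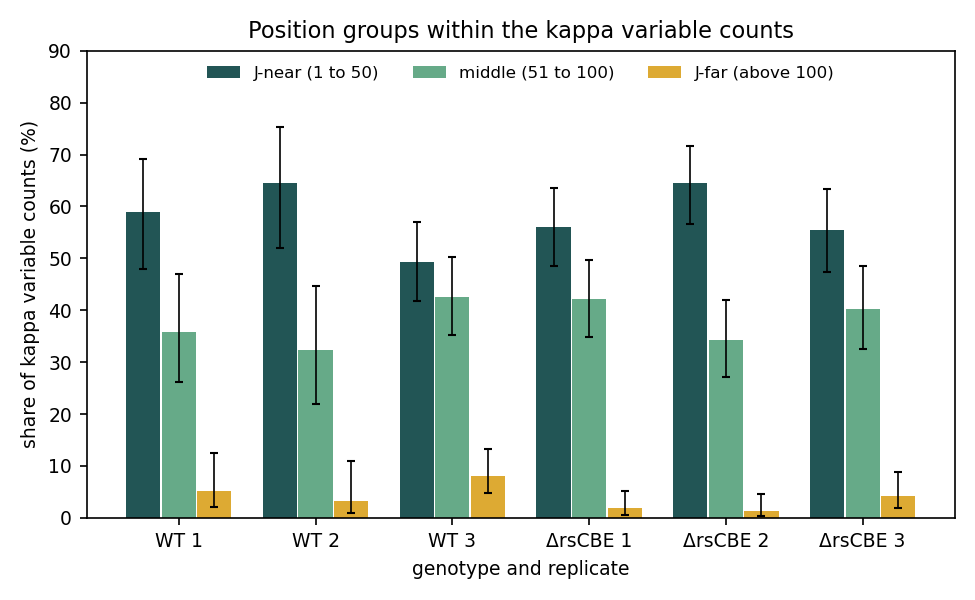
Share of the kappa V gene counts (vertical axis, percent) that fell in each position group, for each library; error bars are 95% Wilson intervals. The J-near share runs from 49.4% to 64.5% and the J-far share from 1.32% to 8.02%, with overlap of the genotypes in both.

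Counts were spread unevenly over V families. Of 20 families 13 had a count and 9 had 20 or more; the other 4 of the 13 had 1 or 2 counts each. Families 8, 4 and 12 together held 66.3% of the counts, with 179, 164 and 162. The 7 families without a count (2, 3, 11, 15, 16, 17 and 20) have 37 members, of which 31 are on the plus strand and 6 on the minus strand. Family 3, the family closest to J, has 12 plus-strand members of 13. Families 4 and 5 lie wholly on the minus strand, with 33 and 6 members, of which 26 and 4 were detected.

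No family pool passed the threshold between genotypes. Of the 9 families with 20 or more counts, 8 had a higher mean in ΔrsCBE and family 9 had a lower one. For comparison, 51.8% of all rows had a log2 fold change above 0. Only families 8, 4 and 12 passed the count filter, and 0 of these 3 reached the threshold with edgeR or with DESeq2's Wald test, against 1.68% of the 7795 rows of the edgeR fit. At an unadjusted p-value under 0.05 there was 1 family by edgeR, family 4, and 0 by DESeq2.

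Family 4, the most numerous family, sits in the middle of the locus and had 12.6, 28.7 and 30.1 CPM in the WT libraries and 48.3, 24.2 and 49.2 CPM in the ΔrsCBE libraries. ΔrsCBE replicates 1 and 3 were above WT, and replicate 2 was within the WT range. The log2 fold change was 0.70 (SE 0.32; adjusted p = 0.441, edgeR). It ranged from 0.43 without WT replicate 1 to 1.04 without WT replicate 3, and was 0.97 with the male-pattern libraries alone. No single gene dominates this family: the highest, Igkv4-68, had 17 of its 164 counts.

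Family 12 had 31.6, 23.9 and 26.2 CPM in WT and 37.7, 38.3 and 34.4 CPM in ΔrsCBE, and the groups did not overlap. Its WT mean was 27.2 ± 3.96 CPM and its ΔrsCBE mean 36.8 ± 2.06 CPM (SD, n = 3), with a log2 fold change of 0.43 (SE 0.27; adjusted p = 0.632, edgeR). The means of the family differed by 9.57 CPM, and those of its member Igkv12-44 alone by 8.43 CPM. Differences of Igkv12-46, Igkv12-47 and Igkv12-89 were 1.64, 2.62 and -2.97 CPM. Overlap of family 12 without Igkv12-44 was not examined. Family 8, whose genes are interspersed with family 6 in the J-near part, had 33.2, 50.2 and 25.5 CPM in WT and 47.2, 43.3 and 25.8 CPM in ΔrsCBE. Each genotype had a library near 25 CPM, and the log2 fold change was 0.23 (SE 0.29; adjusted p = 0.860, edgeR). Single libraries decided this value: it was -0.06 without WT replicate 3, 0.08 without ΔrsCBE replicate 1, 0.14 without ΔrsCBE replicate 2, 0.46 without WT replicate 2 and 0.43 without ΔrsCBE replicate 3. With the male-pattern libraries alone it was 0.51.

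Family 6 had 7.90, 9.55 and 7.71 CPM in WT and 14.1, 12.1 and 24.6 CPM in ΔrsCBE. The groups did not overlap. Of the 9 families with 20 or more counts this held for 2, family 6 and family 12, both with ΔrsCBE above WT. The other families had 2 counts at most, too few to separate 3 libraries from 3. Of all rows past the count filter, 7.25% had ΔrsCBE values all above WT and 8.93% all below. Among single genes without that filter these shares were 5.43% and 5.28%. Family 6 was below the count filter; in the fit without it the log2 fold change was 1.03 (SE 0.46; adjusted p = 0.609, edgeR). Without ΔrsCBE replicate 3 the log2 fold change was 0.68. The means of family 6 differed by 8.55 CPM, and those of its member Igkv6-15 alone by 7.52 CPM. Overlap of family 6 without Igkv6-15 was not examined. Set against family 8 in the same stretch, there were 0.238, 0.190 and 0.303 family 6 counts per family 8 count in WT and 0.30, 0.279 and 0.952 in ΔrsCBE. This ratio overlapped between genotypes (two-sided exact permutation p-value 0.3), so a difference between the 2 families was not shown.

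The other 5 families were near the floor. In fits without the count filter the log2 fold changes were 0.15 for family 1, 0.28 for family 5, 0.65 for family 10, 0.48 for family 19 and -1.01 for family 9, with standard errors between 0.53 and 0.66. Family 9, which supplies 29 of the 30 J-far counts, had 6.32, 4.78 and 10.03 CPM in WT and 3.54, 2.01 and 6.15 CPM in ΔrsCBE. For all 5 the genotypes overlapped. All 5 moved by over 1.5 times when 1 library was left out. Family 1 ran from -0.30 without ΔrsCBE replicate 1 to 0.56 without WT replicate 3, and family 5 from -0.16 without WT replicate 3 to 0.67 without WT replicate 2. Family 10 fell to 0.29 without ΔrsCBE replicate 2, and family 9 moved to -0.53 without WT replicate 3. Family 19 ran from 0.014 without ΔrsCBE replicate 3 to 0.73 without ΔrsCBE replicate 2. With the male-pattern libraries alone, family 1 was 0.77 and family 19 was 0.12.

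**Figure D4:**
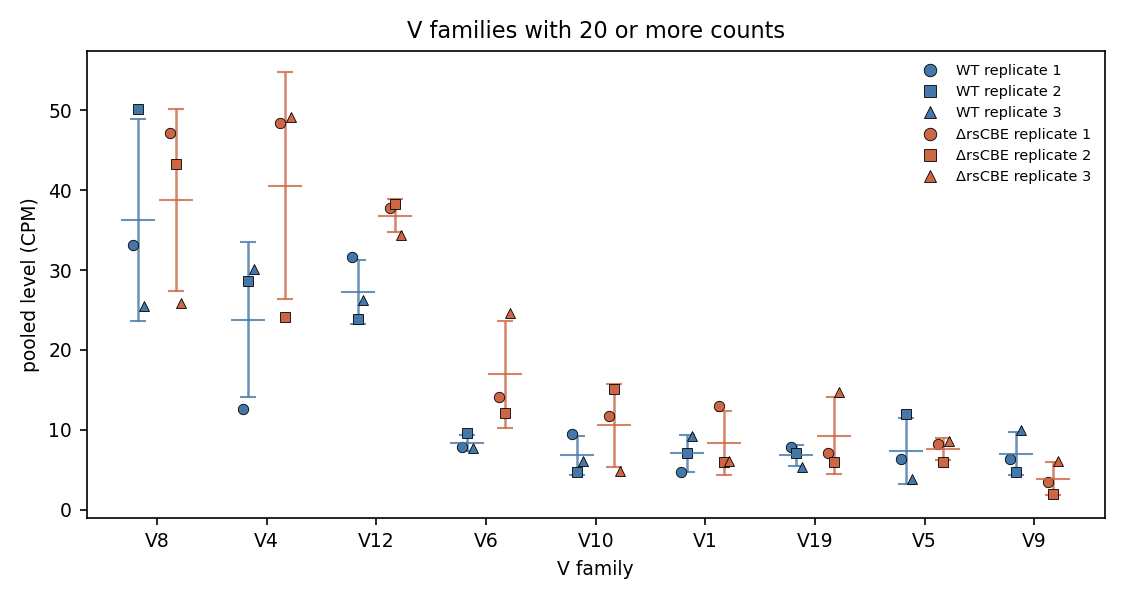
Pooled level in CPM (vertical axis) of the 9 V families with 20 or more counts (horizontal axis, ordered by counts) in each library. Symbols are replicates, and bars give the mean and SD of each genotype. Families 12 and 6 show no overlap between the genotypes; the others do.

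Single V genes were sparse. The 12 most abundant held 430 of the 762 counts (56.4%), 26 genes had 10 or more counts over the 6 libraries, and 12 genes had a count in every library. None passed the count filter, so tests of single genes come from the fit without it, in which 17435 genes were tested and 0.981% passed the threshold (0.143% higher and 0.837% lower in ΔrsCBE). Of the 62 detected members 0 passed (smallest adjusted p-value 0.281), and 4 had an unadjusted p-value under 0.05 by edgeR: Igkv12-44, Igkv6-15, Igkv8-19 and Igkv4-92 (6.45%, against 6.41% of all genes). DESeq2 gave no adjusted p-value under 0.05 for Igkv12-44 or Igkv6-15, the 2 genes it was read for. The log2 fold change was above 0 for 38 of the 62 members (61.3%), against 50.2% of all genes in that fit.

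Igkv12-46 (chromosome 6, 69764523 to 69765022, minus strand) was the most abundant member, with 7, 7 and 9 counts in the WT libraries and 8, 19 and 9 counts in the ΔrsCBE libraries. Its levels overlapped, at 11.6 ± 4.91 (WT) against 13.2 ± 5.19 CPM (ΔrsCBE; SD, n = 3). Per kb of transcript it reached 32.9 CPM over the 6 libraries, ahead of Igkv8-21 (25.96 CPM per kb), Igkv19-93 (22.2 CPM per kb), Igkv8-16 (21.5 CPM per kb) and Igkv12-44 (20.8 CPM per kb). The spread between libraries of each of these genes is larger than the steps between them, so their order is not settled.

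Igkv12-44 (69814631 to 69815154, minus strand) differs from Igkv12-46 by the few bases shown above. It had 2, 0 and 12 counts in WT and 13, 10 and 10 counts in ΔrsCBE, or 3.16, 0 and 9.26 CPM against 15.3, 10.1 and 12.3 CPM. WT replicate 3, the deepest library, lay just under the ΔrsCBE range. The log2 fold change was 1.12 (SE 0.53; adjusted p = 0.685, edgeR), and it was 2.65 without WT replicate 3.

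Igkv6-15 (70406469 to 70406992, minus strand) lies 316 kb from Igkj1 and had 1, 1 and 4 counts in WT and 7, 9 and 10 counts in ΔrsCBE. Its level was 2.35 ± 0.753 CPM in WT, at the floor in 2 of 3 libraries, and 9.87 ± 2.14 CPM in ΔrsCBE (SD, n = 3). The groups did not overlap, and the log2 fold change was 1.90 (SE 0.69; adjusted p = 0.281, edgeR). It held 26 of the 44 family 6 counts in ΔrsCBE and 6 of the 19 in WT. Its nearest relative Igkv6-23, 94.5% identical and also named after its values were seen, had 2, 3 and 2 counts in WT and 3, 2 and 6 counts in ΔrsCBE, which overlapped.

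Altogether 6 of the 62 detected members (9.68%) had ΔrsCBE values all above WT, against 5.43% of all genes in the fit without a filter, and 0 had them all below (5.28%). These members were Igkv12-44, Igkv6-15, Igkv4-78, Igkv8-19, Igkv4-57 and Igkv4-92, the last 4 named after their values were seen. Igkv8-19 had 0 counts in each WT library and 4, 3 and 2 counts in ΔrsCBE, and Igkv4-92 had 0 counts in WT and 3, 1 and 3 counts in ΔrsCBE. At this depth 0 counts allow up to 3 counts in a library, so neither gene is shown to be absent from WT.

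The other abundant members overlapped between genotypes. Igkv8-21 had 5, 6 and 7 counts in WT and 9, 15 and 5 in ΔrsCBE. Igkv19-93, the only member of its family, had 5, 3 and 7 counts in WT and 6, 6 and 12 in ΔrsCBE. Igkv8-16 had 6, 4 and 7 counts in WT and 10, 9 and 3 in ΔrsCBE. The mean CPM of these 3 genes was higher in ΔrsCBE, by less than the spread between replicates.

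Igkv1-88 had 3, 2 and 12 counts in WT and 11, 6 and 2 in ΔrsCBE, and Igkv8-27 had 1, 5 and 8 counts in WT and 8, 5 and 7 in ΔrsCBE. Igkv10-96 had 5, 2 and 4 counts in WT and 6, 11 and 4 in ΔrsCBE, and Igkv8-30 had 3, 2 and 7 counts in WT and 5, 8 and 1 in ΔrsCBE. Igkv12-47, annotated as a pseudogene, had 3, 0 and 4 counts in WT and 4, 6 and 4 in ΔrsCBE, the highest number among pseudogenes. Igkv12-89 was the only gene of these 12 with a lower mean in ΔrsCBE, with 6, 1 and 5 counts in WT and 2, 2 and 2 counts in ΔrsCBE.

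**Figure D5:**
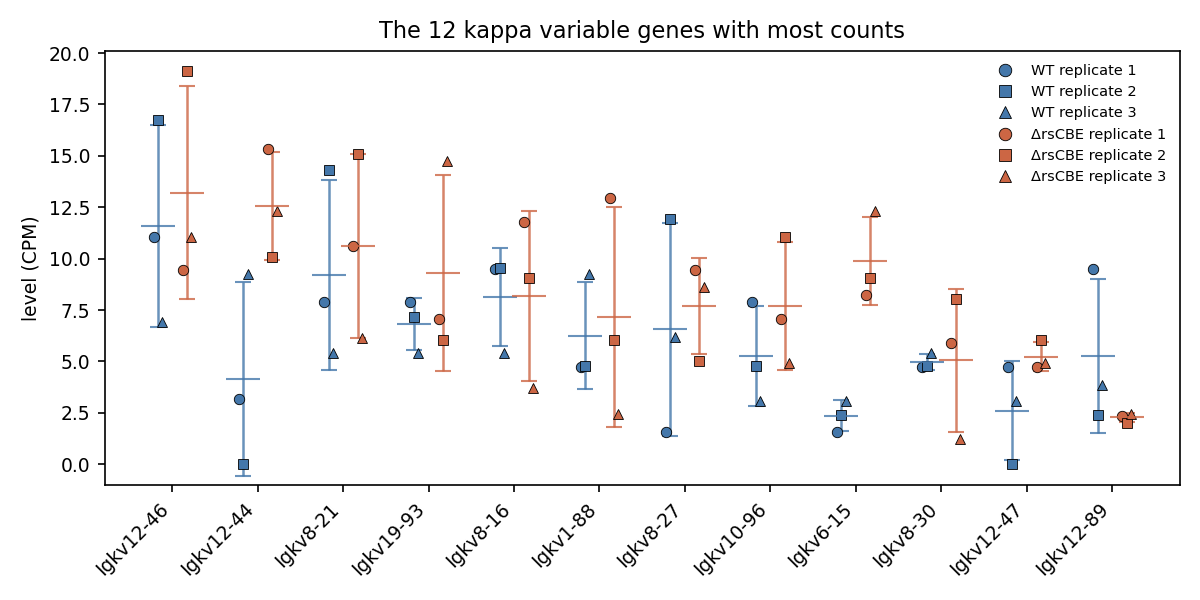
Level in CPM (vertical axis) of the 12 kappa V genes with the most counts (horizontal axis) in each library. Symbols are replicates, and bars give the mean and SD of each genotype. Igkv12-44 and Igkv6-15 show no overlap between the genotypes; the other 10 genes overlap.

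The number of different V genes seen was 31, 27 and 41 in the WT libraries and 46, 34 and 45 in the ΔrsCBE libraries. Brought to the same 62 V gene counts by the exact expectation of drawing without replacement, it was 27.9, 27.0 and 29.3 genes in WT and 31.0, 25.1 and 31.4 genes in ΔrsCBE. ΔrsCBE replicate 2 had the fewest genes at equal counts, and Igkv12-46 alone took 12.5% of its V gene counts. The genotypes overlapped (28.1 ± 1.16 and 29.2 ± 3.50 genes, SD, n = 3, two-sided exact permutation p-value 0.7).

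The genes that rearrange the V genes and those that act on the kappa locus were compared from 2 lists. Of 16 genes of V(D)J recombination 14 were tested; 0 rose and 1 fell, H2ax, while 0.192% of all rows rose and 1.49% fell. The median log2 fold change of the 14 was -0.03, and that of all rows 0.01. H2ax encodes the histone variant that is phosphorylated around DNA breaks, and its mean fell from 195 ± 41.0 to 79.2 ± 20.8 CPM (SD, n = 3; log2 fold change -1.26; adjusted p = 0.000181, edgeR). For the recombinase genes the log2 fold changes were 0.14 (Rag1, adjusted p = 0.754) and -0.14 (Rag2, adjusted p = 0.838, edgeR), the latter -0.30 with the male-pattern libraries alone. Rag1 had 2516, 3452 and 3526 CPM in WT and 3114, 3710 and 3611 CPM in ΔrsCBE, so that its groups overlapped, and its sign turned with the male-pattern libraries alone (-0.021).

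Of 32 transcription factors and architectural proteins that act on the kappa locus 31 were tested. Of these, 1 rose and 0 fell, against 0.192% and 1.49% of all rows, and the median log2 fold change was 0.06. An unadjusted p-value under 0.05 (edgeR) was reached by 5 of the 31, against 10.3% of all rows. The gene that rose was Spi1, which encodes PU.1, a factor that binds the kappa 3' enhancer. It went from 47.0 ± 7.48 to 77.7 ± 3.18 CPM (SD, n = 3; log2 fold change 0.78; adjusted p = 0.0480, edgeR), and the call was lost with the DESeq2 Wald test (adjusted p-value 0.256). The call was also lost with the replicate block (0.0842), with the sex covariate (0.147), with the male-pattern libraries alone (0.122) and without WT replicate 1 (0.130) or 3 (0.398) or ΔrsCBE replicate 1 (0.0837), 2 (0.0536) or 3 (0.162), all edgeR adjusted p-values. Rad21, a cohesin subunit, had a log2 fold change of -0.42 and was short of the threshold (adjusted p = 0.0918, edgeR); it passed without ΔrsCBE replicate 2 (0.0118), with the sex covariate (0.0415) and with the male-pattern libraries alone (0.00965), where the log2 fold change was -0.65. For Ctcf, the DNA-binding partner of cohesin, the log2 fold change was -0.24 (adjusted p = 0.514, edgeR), and -0.37 with the male-pattern libraries alone. Stag1, of the same list and named after its values were seen, was nearer to the threshold than Rad21. Its log2 fold change was -0.45 (adjusted p = 0.0658, edgeR), with ΔrsCBE values all below those of WT, as for Rad21 and Ctcf. Of all rows, 8.93% had ΔrsCBE values all below WT. Other cohesin-related genes of the list overlapped between genotypes and are also named after their values were seen. Their log2 fold changes were 0.64 (Wapl), 0.09 (Nipbl), -0.12 (Smc1a), -0.18 (Smc3) and -0.27 (Stag2). The factors Pax5, Ebf1, Irf4, Irf8 and Tcf3, which set B cell identity or act on kappa enhancers, had log2 fold changes of 0.11, 0.14, 0.07, 0.02 and -0.09, with adjusted p between 0.685 and 0.983 in the edgeR fit. With the male-pattern libraries alone Irf8 was 0.41 (adjusted p = 0.363, edgeR), Irf4 0.26 (adjusted p = 0.406, edgeR), Pax5 0.053 and Tcf3 -0.047.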

How the data were processed

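Per the labels' protocols, RNA of sorted pre-B cells was depleted of ribosomal RNA and made into stranded total RNA libraries (SMARTer, Takara). The authors deposited whole-number read counts per gene symbol, without normalization. The submitters' processing notes name Trim Galore 0.6.10, STAR 2.7.11, HTSeq, DESeq2 and the build mm10. The annotation, strand setting and filters are not given in the sources used here. Columns were matched to samples by library name; 0 columns belonged to other samples.

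Kappa V rows were replaced by their sum (all, by position group, or by family), and each table was fitted whole with edgeR 4.0.16 in R 4.3.3. The settings were filterByExpr with a minimum count of 10, TMM factors of 0.978 to 1.02 on full library totals, and robust glmQLFit and glmQLFTest. P-values were adjusted by Benjamini-Hochberg over all rows, with a threshold of 0.05, and standard errors come from the F statistic. DESeq2 1.42.0, run without independent filtering, was an alternative. Permutation tests used scipy 1.17.1 and identities Biopython 1.88, over at least 150 aligned columns. The fitting code was tested on simulated data.

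Position used the number after the family hyphen; 26 symbols carry a further number, and only Igkv14-134-1 of these had a count. Coordinates, strands and sequences come from GENCODE M21 on GRCm38, the assembly that mm10 names. Named were every family pool, the 12 V genes with most counts, the leading gene of each family with 20 or more counts, the locus entries, and list genes past the threshold or named in the list rule. Members and lists were chosen with earlier results of these data known. Promoter sequences of kappa V genes were not used here. A marker of the planned cell type list is not reported here.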

Additional observations from a re-analysis of the deposited data

How the results depend on the processing

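The pooled kappa V level, the J-near and middle levels and the count of 0 family pools kept their direction and their side of the threshold under every alternative run, with log2 fold changes of 0.34 to 0.57, 0.30 to 0.63 and 0.31 to 0.72. With the replicate block these were 0.42, 0.45 and 0.50, and the block changed no call of a V gene pool. Replicate numbers were not taken to pair the libraries, since deviations of same-numbered libraries correlated by 0.00908 to 0.0196 only. With borders at 40 and 90 the J-far log2 fold change was 0.31 in place of -0.88. The difference in the J-near share, 1.08 percentage points, was -1.53 in male-pattern libraries, -1.56 with borders at 40 and 90, -1.29 as a share of detected genes and -3.04 to 4.53 with 1 library left out. The middle share difference was -0.391 to 4.78 points with 1 library left out, and the J-far share difference, -3.02 points, was 0.716 as a share of detected genes. The cause was not tested. With a sex covariate the log2 fold changes of Igh, Igl and Rag1 were -0.090, 0.018 and -0.024, and with the male-pattern libraries alone -0.088, 0.020 and -0.021. With 1 library left out the values ran from -0.056 to 0.46 for family 8, from -0.30 to 0.56 for family 1 and from -0.16 to 0.67 for family 5. They ran from -0.036 to 0.17 for Irf4, from -0.21 to 0.14 for Irf8 and from -0.0049 to 0.22 for Rag1. The 1 called recombination gene became 2 in male-pattern libraries and 1 to 2 with 1 library left out. The 1 called kappa locus factor became 0 with DESeq2 and with the replicate block, 2 with the sex covariate and 4 in male-pattern libraries (Spi1 in neither case), and 0 to 1 with 1 library left out. Depth limits every single V gene, none of which passed the count filter. Alternatives to the fits without the count filter, for the J-far group, the less abundant families, single V genes and list genes, were chosen after seeing the data.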
